A study of Mus musculus with 54 samples.

Results

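The immunoglobulin heavy chain (Igh) locus on mouse chromosome 12 was described through its CTCF, Rad21 and Smc3 peaks. The members were the 183 Ighv gene symbols in the GENCODE M21 annotation and every peak whose summit lay at chr12:113200001-116100000 (mm10), a stretch of 2.9 Mb that holds the whole Ighv array and the flank below the constant genes. The Ighv symbols were 183 of 55413 annotated genes, and the interval held 360 of the 781171 peaks in the 44 peak lists. Merged by overlap, the CTCF peaks of the interval made 29 of the 68126 CTCF sites of the series, and peaks of all antibodies made 31 of 75876 sites.

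Igh is assembled in developing B cells by V(D)J recombination, in which the Rag1 and Rag2 recombinase joins one V, one D and one J segment at recombination signals, each made of a heptamer, a spacer and a nonamer. CTCF is a zinc finger protein that binds a directional DNA motif and halts the cohesin ring, of which Rad21 and Smc3 are subunits. In B cell precursors, CTCF elements below the constant genes (the 3′ CTCF binding elements), between the V and D segments (intergenic control region 1, IGCR1) and beside many V genes are known to shape the loops that bring V segments to the recombination center. The cells studied here are not B cells, so the data describe CTCF occupancy of the array outside the lineage in which it recombines.

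The cells were E14 embryonic stem cells, abbreviated ESCs, or the neural progenitors (NPCs) that formed from them over 2 days of differentiation. The rescue lines carried the mAID-eGFP degron on both endogenous CTCF alleles, OsTir1(F74G) at Rosa26, and a doxycycline-inducible Flag-Halo CTCF, either wild type (WT) or lacking zinc finger 1 (ΔZF1). Each rescue line was 1 clone, and all rescue samples, WT included, received 1 µM 5-Ph-IAA and 1 µg/ml doxycycline for 24 hours, so that the rescue protein replaced the degraded endogenous one. The 4 rescue groups, named ESC-WT and NPC-WT for the wild type and ESC-ΔZF1 and NPC-ΔZF1 for the mutant, had 4 CTCF, 2 Rad21 and 2 Smc3 libraries each, and untreated NPCs of parental E14 and of clones with a transcript truncated by a poly(A) signal (Podxl pA and Grb10 pA) had 2 CTCF and 2 Smc3 libraries each. The files hold no expression values, so the identity of the cells and the silence of the array could not be checked. The paper calls the replicates biological, but the labels do not say that they were separate cultures. The p-values then measure only the spread between these samples.

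CTCF libraries held 5755 to 45941 peaks and gave 3 to 22 peaks in the interval, with a median of 9. Rad21 lists were shorter, at 1306 to 10410 peaks, and gave 0 to 4 peaks there. Smc3 lists held 8167 to 34086 peaks for the rescue groups and 10005 to 15626 for the other NPCs, with 2 to 18 and 3 to 9 peaks in the interval. Replicates 1 and 4 of the CTCF rescue groups stood apart from replicates 2 and 3, with a background of 1.14 to 2.39 fragments per base against 0.392 to 0.905 and with broader peaks, so results that rest on these libraries are also given for each pair.

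Of the 34 CTCF positions of the locus, made from summits within 150 bp of each other, 23 were of 3 kinds, and examples of their sequences are shown because the orientation and the place of the motif set them apart. The others were 8 positions elsewhere in the array and 3 above it. A 20-base CTCF matrix learned from the E14 NPC lists outside chromosome 12, with the consensus GTGGCCAGCAGAGGGCGCCA, was searched on both strands. The first kind lay below the lowest Igh gene, at the place of the 3′ CTCF binding elements. Its strongest peak held a pair of motifs, printed 5′ to 3′ on the plus strand of mm10 with the motif in capitals.
3′ element, lower motif, chr12:113222192-113222251: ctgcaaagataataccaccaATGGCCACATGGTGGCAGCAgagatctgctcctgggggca
3′ element, upper motif, chr12:113222457-113222516: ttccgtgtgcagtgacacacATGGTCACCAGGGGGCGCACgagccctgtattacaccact

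The second kind was a pair of sites above Ighd1-1, at the place of IGCR1. Printed on the plus strand, the capitals of the lower site are the reverse complement of the motif, so that this pair points outward.
IGCR1 lower site, chr12:113485246-113485305: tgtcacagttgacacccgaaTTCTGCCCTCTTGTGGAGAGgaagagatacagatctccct
IGCR1 upper site, chr12:113487864-113487923: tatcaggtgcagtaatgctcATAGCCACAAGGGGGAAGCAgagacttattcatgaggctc

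The third kind lay directly beyond V genes, on the side of the recombination signal. The 90 bases that follow the annotated gene are printed on the minus strand, the strand of the gene, from the first base beyond it. Capitals mark, in this order, the heptamer, the nonamer and the CTCF motif.
Ighv5-2, chr12:113578414-113578503: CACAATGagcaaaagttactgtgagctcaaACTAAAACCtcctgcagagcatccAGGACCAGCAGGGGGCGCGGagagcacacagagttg
Ighv2-3, chr12:113611097-113611186: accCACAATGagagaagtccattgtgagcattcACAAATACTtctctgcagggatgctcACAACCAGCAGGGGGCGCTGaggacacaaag
Ighv5-15, chr12:113826556-113826645: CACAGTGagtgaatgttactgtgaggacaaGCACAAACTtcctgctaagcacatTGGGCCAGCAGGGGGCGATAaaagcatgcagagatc
Ighv2-9, chr12:113879006-113879095: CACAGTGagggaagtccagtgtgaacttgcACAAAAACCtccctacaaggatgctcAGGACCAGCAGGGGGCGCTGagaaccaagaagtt
Ighv7-1, chr12:113896318-113896407: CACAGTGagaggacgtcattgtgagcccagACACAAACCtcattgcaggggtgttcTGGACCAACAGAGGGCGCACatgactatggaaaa
Ighv8-1, chr12:114332706-114332795: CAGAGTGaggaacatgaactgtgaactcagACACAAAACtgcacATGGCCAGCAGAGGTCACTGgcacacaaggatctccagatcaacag
Ighv12-3, chr12:114366431-114366520: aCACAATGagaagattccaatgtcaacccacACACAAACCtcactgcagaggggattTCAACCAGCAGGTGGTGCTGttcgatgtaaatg

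The next pair shows flanks with no CTCF summit within 200 bp beyond the gene, one with the motif and one, from the large Ighv1 family, without it.
Ighv2-6, chr12:113716580-113716669: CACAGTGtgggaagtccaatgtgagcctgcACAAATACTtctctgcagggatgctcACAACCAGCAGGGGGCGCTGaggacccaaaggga
Ighv1-67, chr12:115603850-115603939: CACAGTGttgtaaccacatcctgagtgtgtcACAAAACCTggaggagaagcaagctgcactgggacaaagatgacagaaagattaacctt

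The motif directions of the 34 positions split along the locus. All 9 positions below the lowest Igh gene held the motif on the plus strand, pointing toward the array. Of the 20 positions inside the Ighv array 19 held it, all on the minus strand, pointing toward the D segments and the 3′ elements. Between these 2 blocks, the pair above Ighd1-1 had 1 motif on each strand. In all, 32 of the 34 positions (94.1%) held the motif within 60 bp of the summit, against 67.4% of 74663 positions in the rest of the genome and 3.59% of 3733 windows taken 1000 bp away. Of the 31 pairs of neighbouring motif-bearing positions in the interval, 27 (87.1%) shared a strand, against 52% of 50288 such pairs elsewhere, where 50% of motifs were on the plus strand. These counts are descriptions of neighbouring positions, which are not independent of each other.

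**Figure D1:**
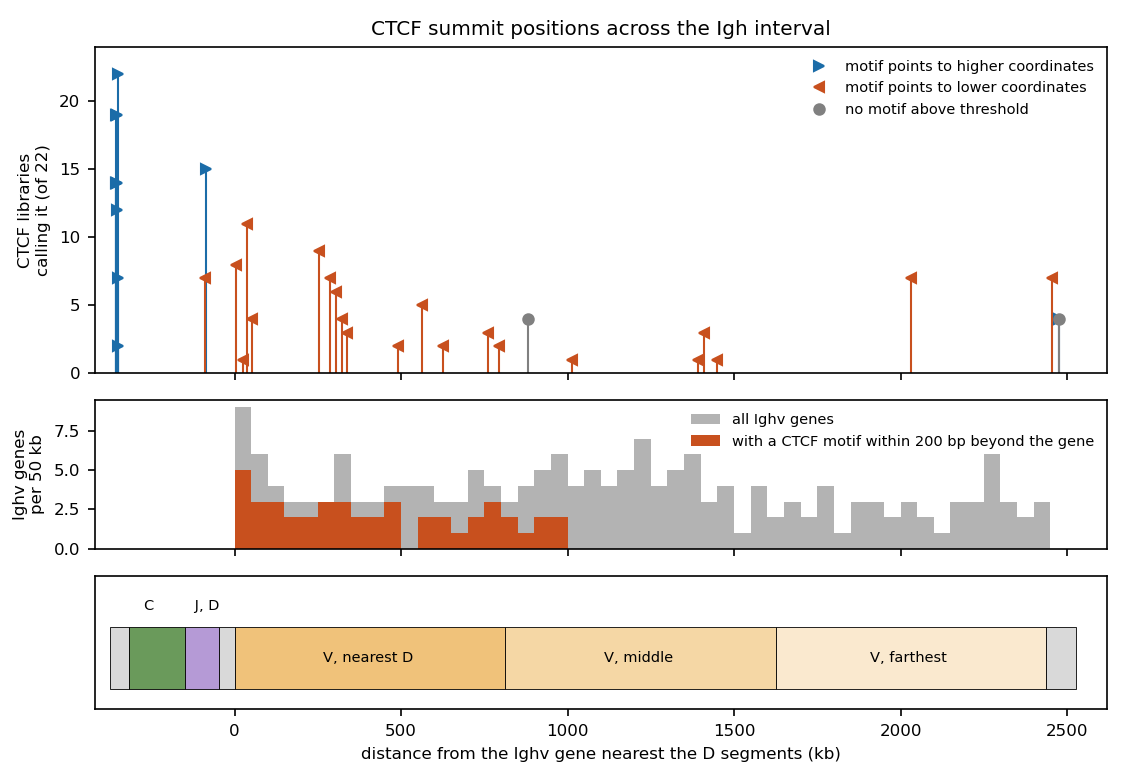
The top panel plots each of the 34 CTCF positions against its distance in kb from the Ighv gene nearest the D segments, with the number of the 22 CTCF libraries that called it on the vertical axis, and arrowheads give the motif direction. The middle panel counts Ighv genes in 50 kb bins, those with a CTCF motif within 200 bp beyond the gene in orange, and the bottom panel gives the parts of the locus to scale. Arrowheads point right on the far left and left throughout the array, and the orange bars end before the distal part.

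CTCF peaks were sparse in the interval. The 22 CTCF libraries had 1.03 to 7.59 peaks per Mb there against 2.17 to 17.4 per Mb over the genome, and all 22 were below their own genome-wide density. The mean log2 ratio of interval to genome density was -1.26 ± 0.59 (SD, n = 22 libraries), a 2.39-fold lower density (two-sided sign-flip permutation test over libraries, 100000 resamples, p = 2.00e-05). Libraries that share a cell line are not independent, and the p covers only the spread between libraries. It does not compare the interval with other stretches of the genome. Inside the Ighv array alone, the median was 0.615 peaks per Mb, and 7 of 22 libraries had none. The other long V arrays are given for scale only, with medians of 1.27 peaks per Mb in the Igkv array (kappa light chain, chromosome 6) and 2.32 in the Trav and Trdv array (T cell receptor alpha and delta, chromosome 14).

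The sites were unevenly placed. The 0.0548 Mb below the lowest Igh gene held 4 of the 29 merged sites, and the constant genes none. The stretch from the constant genes to the highest annotated D segment held 2, which are the IGCR1 pair. The gap between that D segment and the lowest V gene held none. Divided into 3 equal lengths of 0.812 Mb, the Ighv array had 14 sites in the part nearest the D segments, 5 in the middle and 1 in the part farthest away, beside 67, 71 and 45 Ighv genes. Above the highest Ighv gene lay 3 sites, 2 of them inside Zfp386, a zinc finger gene, 1 of these with a summit 381 bp from its start site.

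Spacing followed the same division. Neighbouring positions below the Igh genes were a median of 882 bp apart, those in the array 39134 bp and those in the rest of the genome 9737 bp. The longest stretch without a CTCF position, 584 kb, held 31 Ighv genes, 23 of them of the Ighv1 family. A stretch of 378 kb held 38 Ighv genes, all Ighv1. The unique share of 50-base words in mm10, a guide to how many short fragments can be placed, was 81.6%, 77% and 63.9% from the nearest to the farthest part of the array, against 87.7% in the rest of chromosome 12. Reads of low mapping quality were removed before peaks were called, and the part of this filter in the thinning of sites was not tested.

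Merged sites called in at least 11 of the 22 CTCF libraries made up 5 of 29 in the interval (17.2%), against 28% in the rest of the genome, and 3 of the 5 were 3′ elements. The merged site at chr12:113219761-113223243 was called in all 22 CTCF libraries, 1 of 29 sites (3.45%), against 2.76% of sites elsewhere. Its neighbours at chr12:113217120-113218382 and chr12:113215780-113216464 were called in 21 and 19 libraries. The remaining site, chr12:113224093-113224549, was called in 7. Over the 4 sites the matrix matched 12 times in 5888 bp, each time on the plus strand, and 10 of the 12 matches had a CTCF summit within 60 bp in at least 1 library.

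At the strongest 3′ position fold enrichment over the background was 106, 38.1, 45.2 and 26.2 in ESC-WT replicates 1 to 4. In ESC-ΔZF1 it was 49.5, 44.8, 19.3 and 15.9. NPC-WT libraries gave 21.8, 26.7, 28 and 13.2, and NPC-ΔZF1 libraries 11.6, 22.4, 12 and 12.6. The ranges of the groups overlapped in each comparison. By replicate number, ESC-WT exceeded ESC-ΔZF1 in 3 of 4 pairs, NPC-WT exceeded NPC-ΔZF1 in 4 of 4, and ESC-WT exceeded NPC-WT in 4 of 4, where 4 pairs cannot give a two-sided sign-flip p below 0.125. Within each list the position stood at the 83.9th to 99.3rd percentile of fold enrichment, the lowest value being that of an NPC-ΔZF1 library. In untreated NPCs the values were 26.6 and 34.3 for E14, 23.5 and 19.8 for Podxl pA, and 34.8 and 33.7 for Grb10 pA.

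The 2 motifs of this peak, 265 bp apart, were used unevenly by the antibodies. CTCF summits lay within 60 bp of the upper motif in 15 libraries and of the lower motif in 6. All 6 Rad21 libraries with a peak here had the summit at the lower motif and none at the upper. Smc3 summits were near the upper motif in 12 of 14 libraries and near the lower in 3. Broad peaks report a single summit, so a library counted at one motif may also have signal at the other.

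The IGCR1 pair was unequal. The upper site, 1597 bp from Adam6b, was called in 15 of 22 CTCF libraries and the lower, 3108 bp from Ighd1-1, in 7. At the upper site the fold enrichment was 20.2, 10.6 and 9.02 in the 3 ESC-WT libraries that called it, 10.6 and 7.16 in 2 ESC-ΔZF1 libraries, 8.05, 10.5 and 7.35 in 3 NPC-WT libraries, and 6.14 in 1 NPC-ΔZF1 library. Both untreated E14 NPC libraries called it, at 18 and 14.4. The lower site was called in 1 ESC-ΔZF1 and 1 NPC-WT library of the rescue groups, at 5.75 and 7.87, and in 5 of 6 untreated NPC libraries at 6.39 to 11.1.

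Cohesin peaks recurred at the upper site of the pair. Smc3 peaks lay within 150 bp of it in 13 of 14 libraries and Rad21 peaks in 5 of 8. The summits of all 13 Smc3 peaks and all 5 Rad21 peaks lay on the side to which the motif points, 18.5 to 70.5 bp and 34.5 to 49.5 bp past the motif centre. The lower site had Smc3 in 7 libraries and Rad21 in none. At the strongest 3′ position, measured from its upper motif, 7 of 16 Smc3 summits and 0 of 6 Rad21 summits lay on the side to which the motif points, with medians of -12 and -245 bp. The Rad21 summits lay at the lower motif, 265 bp below the upper, so the reference chosen fixed their side. Sides were not counted from the lower motif, so these counts cannot be set against those at the upper IGCR1 site.

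Within the array, 12 of 20 CTCF positions (60%) lay within 200 bp beyond the recombination signal end of an Ighv gene, stretches that make up 1.49% of the array. The summits were 24 to 77 bp beyond the gene, with a median of 55.5 bp. In the Igkv and the Trav and Trdv arrays, 0 of 31 and 0 of 19 positions lay within such a distance of a V gene end. The genes were Ighv5-2, Ighv5-4, Ighv2-3, Ighv5-6, Ighv5-15, Ighv5-17, Ighv2-9, Ighv7-1, Ighv7-2, Ighv8-1, Ighv12-3 and Ighv6-7, and all but the pseudogene Ighv8-1 are annotated as V genes. Their heptamers matched CACAGTG exactly in 6 of 12 cases (50%), against 59% of all 183 Ighv genes, and with at most 1 mismatch in 12 of 12, against 79.8%.

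The motif itself was more frequent beside V genes than the peaks. It was found within 200 bp beyond 45 of the 183 Ighv genes, each time in the direction of the gene, and in 37 of these it began 54 to 56 bp beyond the gene end. By family it was present beside 11 of 21 Ighv5 genes, 9 of 11 Ighv2 genes, 4 of 4 Ighv7 and 4 of 4 Ighv10 genes, 4 of 8 Ighv3 genes and 0 of 92 Ighv1 genes. CTCF was called at 11 of the 45, in families Ighv5 (5 genes), Ighv2 (2), Ighv7 (2), Ighv8 (1) and Ighv12 (1). The share of motif matches that are called elsewhere in the genome is not given here, so this count has no background to be read against. The motif score had a median of 20 over the 11 called flanks, from 14.1 to 22.9, and of 15.1 over the 34 uncalled flanks, from 7.04 to 21.6, where the threshold was 5.85. The ranges overlapped, as Ighv2-3 and Ighv2-6 show, with the same 20 bases in capitals and calls in 11 and 0 libraries.

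**Figure D2:**
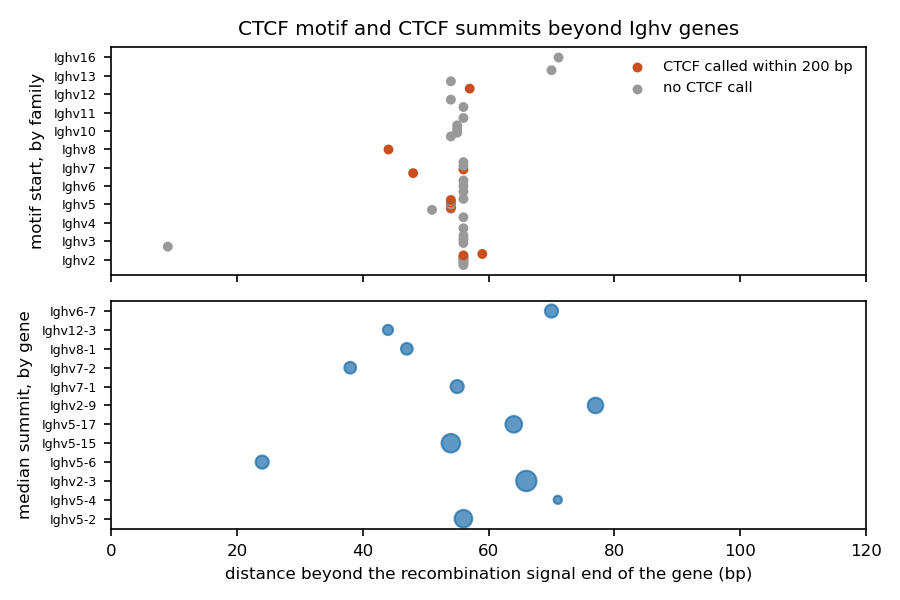
The top panel gives the start of the CTCF motif in bp beyond the gene for the 45 Ighv genes that have one, by family, in orange where CTCF was called within 200 bp and in grey where it was not. The bottom panel gives the median CTCF summit for the 12 genes with a call, and larger points mean more of the 22 libraries. Most motifs start 54 to 56 bp beyond the gene, and the summits lie 24 to 77 bp beyond it.

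One flank, that of Ighv6-7, had a peak in 4 libraries but no motif above the threshold in mm10, which is a C57BL/6J sequence. The same assembly includes an alternate Igh scaffold from 129S1/SvImJ, a strain related to that of E14 but not the same substrain. In 90 bases beyond the gene the scaffold differed from mm10 by A67G, counted from the first base beyond the gene on its own strand, and the motif score rose from 4.55 to 16. The 2 sequences are shown for this difference, with heptamer and nonamer in capitals, and the motif of the 129S1/SvImJ flank as well.
Ighv6-7 in mm10, chr12:114455536-114455625: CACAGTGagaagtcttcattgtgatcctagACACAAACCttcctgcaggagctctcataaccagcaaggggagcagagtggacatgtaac
Ighv6-7 in 129S1/SvImJ: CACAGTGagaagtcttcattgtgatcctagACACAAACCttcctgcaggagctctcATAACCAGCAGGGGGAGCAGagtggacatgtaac

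On the scaffold, windows of 301 bp around 26 of the 34 CTCF positions aligned to it over at least 250 bp with 91.7 to 100% identity and a median of 98.5%, and all 26 held the motif there. The 8 that did not align all lay beyond Ighv6-7, near which the scaffold ends. They could not be compared, and are not evidence of sequence missing from the strain. Of the flanks up to Ighv6-7 that held the motif in mm10 but no peak, 29 of 30 aligned, with a median identity of 97%, and 27 kept the motif. Alignments down to 74.1% identity among these, and pairs of genes that matched the same scaffold position, such as Ighv4-1 and Ighv4-2, mean that some mm10 flanks may have no direct counterpart in the scaffold. The part of strain differences in the uncalled flanks was not tested.

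Calls in the array were weak. Over 84 calls of array positions fold enrichment was 4.01 to 17 with a median of 8.57, resting on 6 to 37 fragments at the summit, recovered from the deposited fold and p-value, with a median of 14. The strongest 3′ position rested on 18 to 204 fragments in the 21 libraries where the number could be recovered. In their own lists, array calls had a median percentile of 35.2, and 19% were above the 50th.

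The Ighv2-3 flank was the array position called most often, in 11 of 22 libraries. Fold enrichment there was 14.1, 10.4 and 10.4 in ESC-WT replicates 1 to 3, and 8.71, 7.87 and 5.03 in ESC-ΔZF1 replicates 1 to 3. No NPC-WT or NPC-ΔZF1 library called it, while 5 of 6 untreated NPC libraries did, at 9.6 and 11.8 for E14, 10.1 in 1 Podxl pA library, and 11.7 and 9.84 for Grb10 pA. Smc3 peaks lay within 150 bp of it in 8 of 14 libraries, including 1 of 2 NPC-WT and 2 of 2 NPC-ΔZF1 libraries. The NPC-ΔZF1 cells thus had Smc3 peaks in both libraries at a position that no CTCF list of the group held. The Smc3 lists of this group were the longest, at 30511 and 34086 peaks, and its CTCF lists held 5755 to 33452. The part of list length was not tested, and a missing call does not show that CTCF was absent.

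Next in number were the flanks of Ighv5-15, called in 9 libraries at 6.5 to 13.3, and Ighv5-2, in 8 libraries at 7.74 to 13.1. Ighv5-17 was called in 7 libraries and Ighv2-9 in 6, the latter reaching 17 in 1 E14 library. Outside V gene flanks, a position 782 bp from Ighv1-67 was called in 7 libraries, the lone CTCF position in the distal part of the array. A position 5587 bp from Ighv9-3 was called in 5 CTCF libraries and had Smc3 in 6. Over all 20 array positions, Smc3 peaks lay within 150 bp of 11 and Rad21 peaks of 2.

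**Figure D3:**
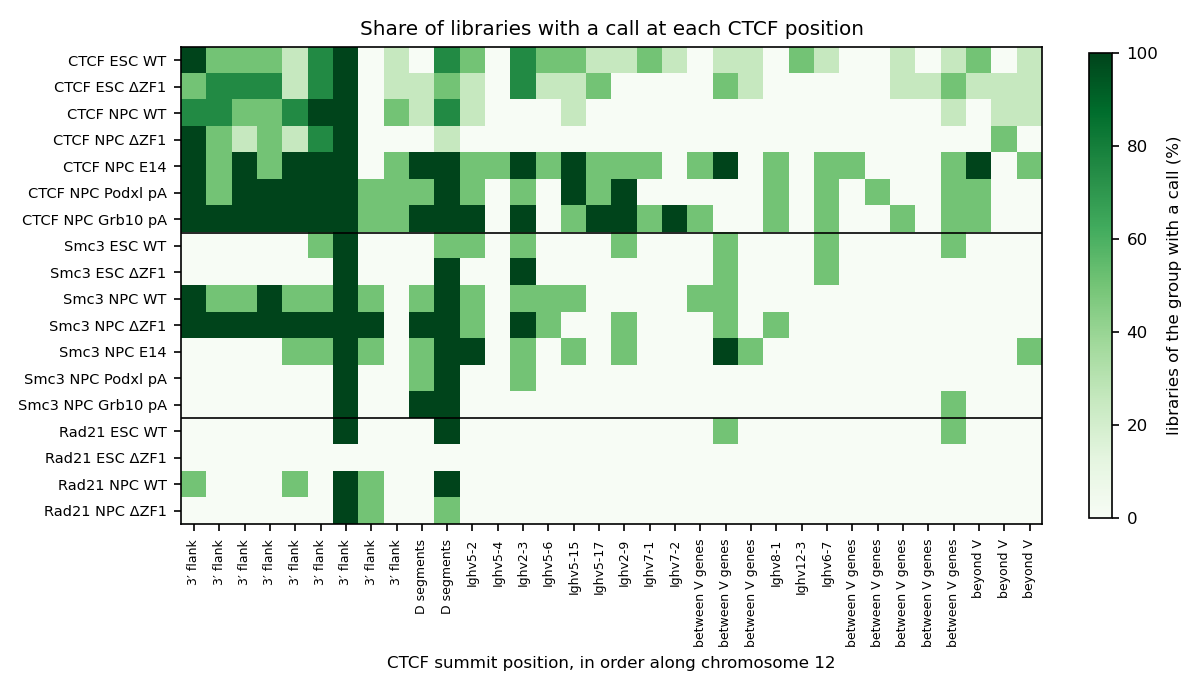
Rows are groups, CTCF above, Smc3 in the middle and Rad21 below, and columns are the 34 CTCF positions in order along the chromosome, named by V gene where the summit lies within 200 bp beyond one. Green depth gives the percent of a group's libraries with a CTCF summit in the position or a cohesin peak within 150 bp of it. The strongest 3′ position and the upper IGCR1 position are dark in most rows. Most other 3′ positions are coloured in the CTCF rows and in the Smc3 rows of NPC-WT and NPC-ΔZF1, darkest in the latter. The array columns are empty for NPC-ΔZF1 CTCF.

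To ask whether zinc finger 1 or differentiation altered CTCF at Igh, the share of each library's peaks that fell in the interval was compared first. It was 0.0458% ± 0.0153 (SD, n = 4) in ESC-WT and 0.045% ± 0.014 (SD, n = 4) in ESC-ΔZF1, a difference of -0.000837 percentage points (two-sided exact permutation test, p = 0.943, adjusted over 3 comparisons 0.943). In NPCs it was 0.0354% ± 0.00726 in WT and 0.0428% ± 0.025 in ΔZF1 (SD, n = 4 each), a difference of 0.00732 (exact permutation p = 0.6, adjusted 0.9). NPC-WT minus ESC-WT was -0.0104 (exact permutation p = 0.257, adjusted 0.771). None of the 3 differences passed the test, and 4 against 4 libraries cannot give a p below 0.0286. The latter 2 exceeded the SD of NPC-WT but were smaller than the SD of the group it was compared with.

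In both ΔZF1 comparisons the pairs of replicates moved in opposite directions. For ΔZF1 minus WT in ESCs, replicates 1 and 4 gave -0.0108 and replicates 2 and 3 gave 0.0091 percentage points. In NPCs the same pairs gave -0.00824 and 0.0229, while for NPC-WT minus ESC-WT both were lower, at -0.0159 and -0.00483. Without NPC-ΔZF1 replicate 3, the shortest CTCF list with 5755 peaks, the NPC difference turned to -0.0016. Without ESC-WT replicate 2 the differentiation difference was -0.0165 with an exact permutation p of 0.0286, unadjusted. The ΔZF1 effect differed between NPCs and ESCs by 0.00816 percentage points (exact permutation of labels within each cell type, p = 0.612).

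**Figure D4:**
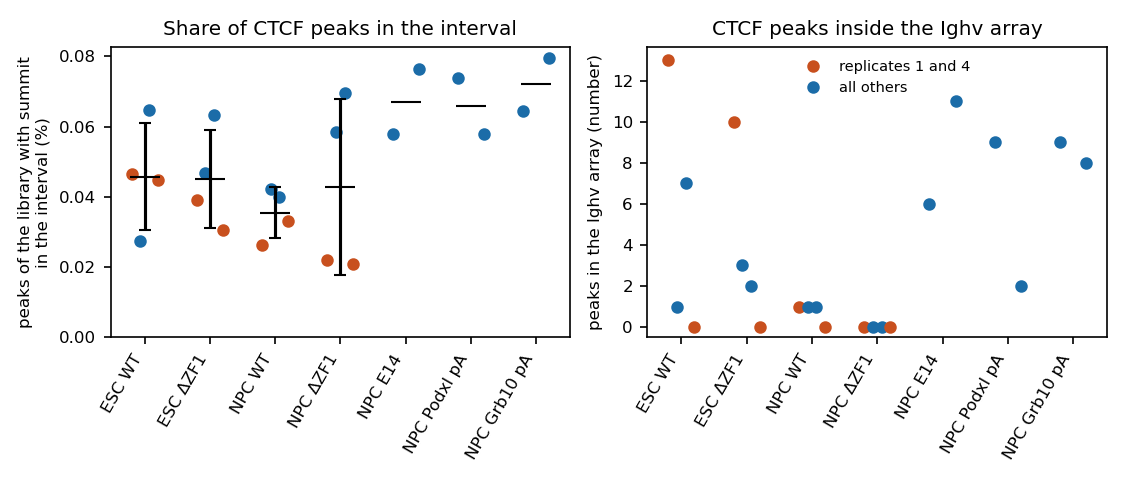
The left panel plots, for each CTCF library, the percent of its peaks with a summit in the interval, with the mean of each group as a bar and the SD as whiskers for groups of 4. The right panel plots the number of peaks inside the Ighv array, and replicates 1 and 4 of the rescue groups are orange. The rescue groups overlap on the left, and on the right the 8 NPC rescue libraries lie at 0 or 1.

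The array taken alone gave few peaks to compare. ESC-WT libraries had 13, 1, 7 and 0 peaks in it and ESC-ΔZF1 libraries 10, 3, 2 and 0. NPC-WT libraries had 1, 1, 1 and 0, and NPC-ΔZF1 libraries none. The untreated NPC libraries had 6 and 11 for E14, 9 and 2 for Podxl pA, and 9 and 8 for Grb10 pA. Both ESC groups overlapped both NPC rescue groups at 0. For the share of peaks in the array, exact permutation tests gave p = 0.714 in ESCs and 0.143 in NPCs for ΔZF1 minus WT. For NPC-WT minus ESC-WT the exact permutation p was 0.286. Most NPC rescue libraries had 0 peaks and all with a peak were WT, so 0.143 was the lowest p this permutation test could give. It therefore could not decide whether the NPC groups differed. A count of 0 allows up to 0.00897 to 0.0521% of peaks in the NPC-ΔZF1 lists, covering counting error only. The untreated NPCs and the rescue NPCs differ in line, treatment and experiment, which cannot be told apart.

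Few sites of the interval recurred within a group, so the share kept in the other group rested on 5 or 6 sites. Some of them were called in just 3 of 4 libraries of a group. In ESCs, 3 of the 5 sites called in at least 3 of 4 WT libraries were called in at least 3 of 4 ΔZF1 libraries, 60% (95% Wilson interval 23.1 to 88.2), against 64.3% of such sites genome-wide. The share was 40% without ESC-ΔZF1 replicate 1, 2 or 3, and 45.5% (5 of 11) when 2 of 4 libraries were enough. Here and below, with a library left out, calls in all 3 left in its group were still needed. This stricter rule can by itself change the share. The sites that fell short were the lowest 3′ element, called in 4 WT and 2 ΔZF1 libraries, and the upper IGCR1 site, called in 3 and 2. In NPCs 4 of 6 were kept, 66.7% (30 to 90.3), against 36.4% genome-wide, an interval that includes the genome-wide share, and 33.3% without NPC-ΔZF1 replicate 2, 3 or 4. The 2 that fell short were the 3′ peak at chr12:113219761-113220935, called in 4 and 2 libraries, and again the upper IGCR1 site, called in 3 and 1.

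From ESC-WT to NPC-WT 4 of 5 sites were kept, 80% (37.6 to 96.4), against 69.5% genome-wide, but 40% without NPC-WT replicate 1, 2 or 3 and 36.4% (4 of 11) when 2 of 4 libraries were enough. The exception was the Ighv2-3 flank, called in 3 ESC-WT and 0 NPC-WT libraries, and 3.99% of sites that recurred in ESC-WT genome-wide were likewise called in no NPC-WT library. No site of the interval was called in all 4 libraries of 1 group and none of the other, among 24, 13 and 23 sites in the ESC, NPC and differentiation comparisons, where genome-wide 0.0482% of sites were called in all ESC-WT and no ESC-ΔZF1 libraries and 0.00179% the other way round. The same shares were 0.452% and 0% for NPC-WT against NPC-ΔZF1, and 0.0617% and 0.0771% for ESC-WT against NPC-WT. Apart from the Ighv2-3 flank, no site of the interval recurred in 1 group of a comparison and was called in no library of the other. Genome-wide 2.11% of sites that recurred in ESC-WT were called in no ESC-ΔZF1 library and 0.602% the other way round. The shares were 8.66% and 0.207% for NPC-WT and NPC-ΔZF1, and 2.18% of sites that recurred in NPC-WT were called in no ESC-WT library.

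Fold enrichment was ranked within each library, the ranks were turned into normal scores, and sites called in all 8 libraries of a comparison were tested by limma with Benjamini-Hochberg adjusted p-values. In the interval 2, 1 and 2 sites could be tested, all 3′ elements, and 0 passed in each comparison, where 0.0386%, 0 and 0.251% of 5188, 2359 and 5981 sites passed genome-wide. At an unadjusted p of 0.05 the counts in the interval were 0, 0 and 1, where 8.37%, 7.5% and 16.1% of the sites tested genome-wide passed. The 1 was the strongest 3′ element, whose normal score was 1.48 in ESC-WT and 0.94 in NPC-WT, a difference of -0.54 ± 0.21 (SE, limma adjusted p = 0.246), with libraries at 1.31 to 1.64 and 0.69 to 1.16 that did not overlap. For ΔZF1 minus WT this element differed by -0.23 ± 0.21 in ESCs (SE, limma adjusted p = 0.822) and -0.13 ± 0.27 in NPCs (SE, limma adjusted p = 0.93).

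Cohesin peaks in the interval were few, and their density was not set against that of the genome. Of 17 Rad21 peaks in the interval all overlapped a CTCF peak of some library, and of 99 Smc3 peaks 97 did, where 92% of Rad21 and 95.8% of Smc3 peaks did so genome-wide. Rad21 peaks numbered 2 and 4 in ESC-WT, 0 and 0 in ESC-ΔZF1, 4 and 3 in NPC-WT, and 1 and 3 in NPC-ΔZF1. The ESC-ΔZF1 lists were the shortest, with 1306 and 2346 peaks, and a count of 0 in them allows up to 0.23% and 0.128% of peaks, so a difference from ESC-WT was not detectable with lists of this length. Background coverage in them was 2.443 and 2.774 fragments per base, between the 2.175 and 3.723 of ESC-WT. The sites called in both Rad21 libraries of a group were the lower motif of the strongest 3′ element, in ESC-WT, NPC-WT and NPC-ΔZF1, and the upper IGCR1 site, in ESC-WT and NPC-WT.

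CTCF sites of the interval were also checked for overlap with a Rad21 peak of the same group. The share was 19% (4 of 21) in ESC-WT and 0% (0 of 19) in ESC-ΔZF1. It was 30.8% (4 of 13) in NPC-WT and 28.6% (2 of 7) in NPC-ΔZF1. Elsewhere in the genome the shares were 21.5%, 4.77%, 18.7% and 14.3% in the same order.

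Smc3 peaks numbered 8 and 2 in ESC-WT, 5 and 4 in ESC-ΔZF1, 18 and 5 in NPC-WT, and 15 and 12 in NPC-ΔZF1. With 2 libraries a group the smallest exact p is 0.333, so these are values without a test. The share of CTCF sites of the interval that overlapped an Smc3 peak was 38.1% (8 of 21) in ESC-WT and 21.1% (4 of 19) in ESC-ΔZF1. It was 69.2% (9 of 13) in NPC-WT and 85.7% (6 of 7) in NPC-ΔZF1. Elsewhere in the genome the shares were 38.3%, 35.4%, 53.5% and 59% in the same order. In untreated NPCs the share was 45.8% (11 of 24) in E14, 21.1% (4 of 19) in Podxl pA and 17.4% (4 of 23) in Grb10 pA, against 52.3%, 46.4% and 45.3%. The NPC-ΔZF1 share rests on few CTCF sites and on the longest Smc3 lists, at 30511 and 34086 peaks. The part of list length was not tested.

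Among 22 genes that act in V(D)J recombination or early B cells, 16 had a CTCF site in the gene or within 1000 bp before its start, as had 68.4% of 21938 protein-coding genes, which were not matched for length. A site that recurred within the group was present for 10 genes in ESC-WT, 9 in ESC-ΔZF1, 11 in NPC-WT, 4 in NPC-ΔZF1, 10 in E14, 6 in Podxl pA and 10 in Grb10 pA. Over all protein-coding genes the shares were 30.9%, 28.3%, 34%, 17%, 33.4%, 25.6% and 33.7% in the same order, and so were lowest in NPC-ΔZF1 too. Ebf1 and Spi1, which encode transcription factors of the B and myeloid lineages, had a site in all 22 libraries. Rag2 had none, and the sites of Rag1 were called in at most 3 libraries. The 5 shortest of the 22 CTCF lists included 3 of NPC-ΔZF1, and the part of list length in these counts was not tested.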

How the data were processed

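CTCF, Rad21 and Smc3 ChIP-seq peak lists of 44 libraries were analysed, and the 10 input samples were not analysed here. Per the study's methods, the authors placed read pairs on mm10 (Bowtie2), discarded those with mapping quality below 30 (SAMtools), PCR duplicates (Picard) and reads in blacklisted stretches (bedtools), and ran MACS2 on every library by itself at q = 0.01. Tool versions are not given in the sources used here. The deposited lists give, for each peak, the fold enrichment at the summit, a ratio of ChIP signal to its surroundings, with −log10 p-values and q-values as the authors' caller wrote them.

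Peaks with a summit in the interval were kept. Sites were merged by overlap of at least 1 bp, and a site was counted as recurring in a group when called in at least 3 of 4 (or 2 of 2) libraries. The lists hold no read counts, so no count model was run, and fold enrichment was compared within a list by its rank. Fragments at a summit were recovered from fold and p-value, and 100% of the peaks used for depth came out whole within 0.002 in −log10 p. Relative depth was the lowest background rate of a library. The p-values of peak shares came from exact permutation tests, and normal scores of fold ranks were fitted with limma 3.58.1 in R 4.3.3, tested on simulated data beforehand. Gene positions were those of GENCODE M21, and sequences and the 129S1/SvImJ scaffold came from RefSeq GRCm38.p6, the mm10 assembly, aligned with BLAST+ 2.17.0. The heptamer CACAGTG and the nonamer ACAAAAACC were sought beyond each V gene, on its strand, with mismatches allowed.

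Named sites were those called in all 22 CTCF libraries, the 10 highest by median percentile of fold among sites called in at least 6 of the 8 WT rescue libraries (4 sites qualified), any site that switched or passed limma, sites recurring in 1 group and called in none of the other, and Rad21 sites called in both libraries of a group. Other positions were described by family, place and number of libraries, chosen after their values were seen. Values of 1 gene of the V(D)J recombination and B cell list are not reported here by name. The members and lists were chosen with earlier results of these data known. The main permutation and limma tests did not use a pairing of replicates. For the pairs by replicate number and the replicate block, replicate numbers were taken to pair the samples. Same-numbered libraries deviated together in every comparison (correlations of 0.22 to 0.55 across sites), though NPC replicates 4 and 1 also correlated at 0.37. Peak names inside the replicate 4 CTCF rescue lists read rep2, so what replicate 4 is stays in doubt where pairs, or replicates 1 and 4, are used. Alternatives were a stricter q, equal peak numbers, the array alone, sites made from summits, other scales, the replicate block, each replicate left out, and each pair of replicates.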

Additional observations from a re-analysis of the deposited data

Results flagged for a closer look

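Of 12 groups of 4 values examined for a sample far from the others, 1 was found, where about 1 in 20 is given by chance. At the strongest 3′ position, the highest NPC-ΔZF1 library, replicate 2, had a fold enrichment of 22.4, while the other libraries of the group had 11.6, 12 and 12.6.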

How the results depend on the processing

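Over 14 results, 200 alternative values were computed. Of these, 177 were counted as unchanged, 12 changed sign, 10 moved and 1 passed the threshold. Unchanged meant the same direction and side of the threshold or, for counts and shares of sites, a loose rule. Under it, sites kept of 40% beside a reported 80%, and of 33.3% beside 66.7%, still counted as unchanged. The cause of the changes below was not tested. For the share of peaks in the interval, ΔZF1 minus WT in ESCs ranged from -0.00701 to 0.00546 percentage points with each replicate left out (0.00546 without WT replicate 3, 0.00109 and 0.00399 without ΔZF1 replicates 1 and 4) and was 0.0091 in replicates 2 and 3. In NPCs it ranged from -0.0016 to 0.0146 and was -0.00434 with equal peak numbers, -0.00299 in the array alone, -0.00824 in replicates 1 and 4, and -0.602 as a log2 number of peaks. NPC-WT minus ESC-WT ranged from -0.0165 to -0.00406. The difference of the ΔZF1 effects ranged from -0.000759 to 0.0154, and was -0.00434 with equal numbers and -0.521 on the log2 scale. Sites kept ranged from 40 to 66.7% in ESCs (100% in the array alone, 1 of 1), from 33.3 to 75% in NPCs (25% in replicates 1 and 4, 1 of 4), and from 40 to 100% for differentiation (0% in the array alone, 0 of 1, and 36.4%, 4 of 11, at 2 of 4 libraries). With a replicate left out, all 3 libraries left in its group had to call a site, a stricter rule. Switched sites numbered 1 in replicates 2 and 3 for NPCs and for differentiation, and 0 to 1 with a replicate left out for differentiation, 1 without ESC-WT replicate 4. Density was -1.19, -0.98 and -3.25 (libraries without a peak set to 0.5) with the stricter q, equal numbers and the array alone. With the replicate block, the exact permutation p of the shares lay between 0.375 and 0.875, where 4 pairs allow none below 0.125, and was 0.492 for the difference of effects, and limma called 3, 0 and 132 sites genome-wide against 2, 0 and 15, with 0 in the interval. The array alone gave no value for the limma counts or for sites kept in NPCs, since no array site qualified. Array calls rested on few fragments, which limits what their absence shows.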

Other observations

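Beside the immunoglobulin segments the interval held Adam6b and Adam6a, sperm fertility genes, with CTCF positions 1597 and 34540 bp from their start sites, and Vipr2, a neuropeptide receptor gene, with the nearest position 27821 bp away. Among pathway genes, Dntt, which encodes the polymerase that adds nontemplated bases at junctions, had a site called in 17 libraries, and Pax5, a B lineage transcription factor gene, had 13 sites, the most frequent of them called in 20. Cd79a, Cd79b, Vpreb2 and Igll1, which encode parts of the B cell and pre-B cell receptors, had none. They are named for having none, and not every receptor gene of the list lacked a site. Over all protein-coding genes, 68.4% had one.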
